A study of Mus musculus with 8 samples.

Results

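The genes described here encode the nuclear subunits of the respiratory chain and of ATP synthase, followed in RNA sequencing of primary mouse keratinocytes, the main cells of the outer skin layer, harvested before the cultures became confluent. A rule on gene symbols took 82 of the 19457 genes in the deposited table: Nduf followed by a, b, c, s or v and a digit, Sdha to Sdhd, Uqcr, Cox4 to Cox8, and Atp5. Ndufa4l2, the Ndufaf assembly factors and symbols ending in -ps were left out by the same rule. Of the 82 genes, 76 had a mean level of at least 1 aligned base per Mb and were tested, 36 for complex I, 4 for complex II, 8 for complex III, 11 for complex IV and 17 for complex V. The libraries fall into 4 from HdR keratinocytes, which carry the HOIL1 ΔRING1 form, and 4 from wild-type (WT) keratinocytes. HOIL-1L, the product of Rbck1, belongs with HOIP and SHARPIN to the ligase that makes linear ubiquitin chains, and ΔRING1 names the loss of its first RING domain. The labels give mouse skin as the tissue and no treatment, and the strain, age, sex and number of mutant alleles are not given in the sources used here. Nor do the labels state if the 4 libraries per genotype are from different mice, pools of mice or different dishes, so every p-value below measures only the spread between these libraries. The comparison asks how the HOIL1 genotype goes with the transcripts of the chain.

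The respiratory chain is a row of membrane complexes in the inner mitochondrial membrane. Complex I takes electrons from NADH and complex II, which is also the succinate dehydrogenase of the TCA cycle, takes them from succinate. Both hand them to coenzyme Q, complex III passes them on to cytochrome c, and complex IV gives them to oxygen. Complexes I, III and IV pump protons, and complex V, the ATP synthase, uses the return flow of protons to make ATP. Most subunits are encoded in the nucleus and imported into mitochondria, while a few core subunits are encoded by mitochondrial DNA. The subunits of a complex are needed in fixed proportions in the protein complex, although their transcripts need not be.

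The values are sums of aligned bases over each gene, scaled to aligned bases per megabase of normalised library total (aligned bases per Mb). A level thus compares a gene between libraries and, divided by transcript length, only roughly between genes. The HdR libraries held 2.31 to 4.31 Gb of aligned bases and the WT libraries 4.78 to 5.43 Gb, so the deepest HdR library was shallower than the shallowest WT library, and depth cannot be told apart from genotype in the unthinned values. Rbck1, the gene with the altered allele, had 43.6, 41.1, 45.2 and 44.8 aligned bases per Mb in the HdR libraries, against 84.5, 89.1, 91.5 and 84.9 in the WT libraries, lower without overlap (log2 fold change -0.99 ± 0.047, SE, limma adjusted p = 7.25e-11), although sums over whole genes cannot show the altered exons. The summed level of 8 keratinocyte markers, Krt5 and Krt14 above all, was 39074 to 40204 in HdR and 36399.7 to 40069.6 in WT. Of these 8 markers 3 were called higher and 2 lower, and the suprabasal keratin genes Krt1 and Krt10 among them were lower in HdR. Of 7 tested melanocyte markers 6 were lower, with sums of 27.1 to 29.5 in HdR and 51.9 to 59.9 in WT. Sums of the fibroblast and endothelial markers stayed at or under 5.80. The part of these differences in the results was not tested. In bulk RNA, fewer cells of a type and less RNA per cell cannot be told apart.

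Respiratory chain transcripts changed by small amounts in HdR keratinocytes, and more of them were called lower than higher. Of the 76 tested, 6 were higher, 23 lower and 47 not called at a limma adjusted p under 0.05, so that 38.2% were called, against 45% of all 11870 genes tested (21.2% higher and 23.8% lower). Log2 fold changes ran from -0.34 to 0.20, with a median of -0.046, against -0.010 over all genes tested. With upper-quartile scaling these medians were -0.0062 and 0.027, and the median of the 76 was -0.020 with library totals and -0.024 with GC and length correction. The median size without regard to sign was 0.10, against 0.15 over all genes tested, and 40 of the 76 lay under 0.1. The values of the HdR and WT libraries did not overlap in 21 genes, 5 higher (6.58%) and 16 lower (21.1%), or 27.6% of the 76. Over all genes tested 41.1% did not overlap, 19.8% higher and 21.3% lower. None of the 76 was shown to exceed a 1.2-fold change: limma's treat test called 0, with 0 at an unadjusted p under 0.05 and a smallest adjusted p of 0.536, while it called 7.47% of all genes tested. By share, 7.89% of the respiratory chain genes were called higher, against 21.2% of all genes tested, and 30.3% lower, against 23.8%. Without overlap, the lower share was near that of all genes tested and the higher share was smaller. These differences were not tested. The split between directions depended on the scaling: 20.7% of the called respiratory chain genes were higher with TMM scaling and 44.0% with upper-quartile scaling, which called 11 higher and 14 lower and moved the median of all genes by 0.038. With each library left out in turn, the number higher was 3 without HdR 1 or WT 1 and the number lower ran from 17 to 28.

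**Figure D1:**
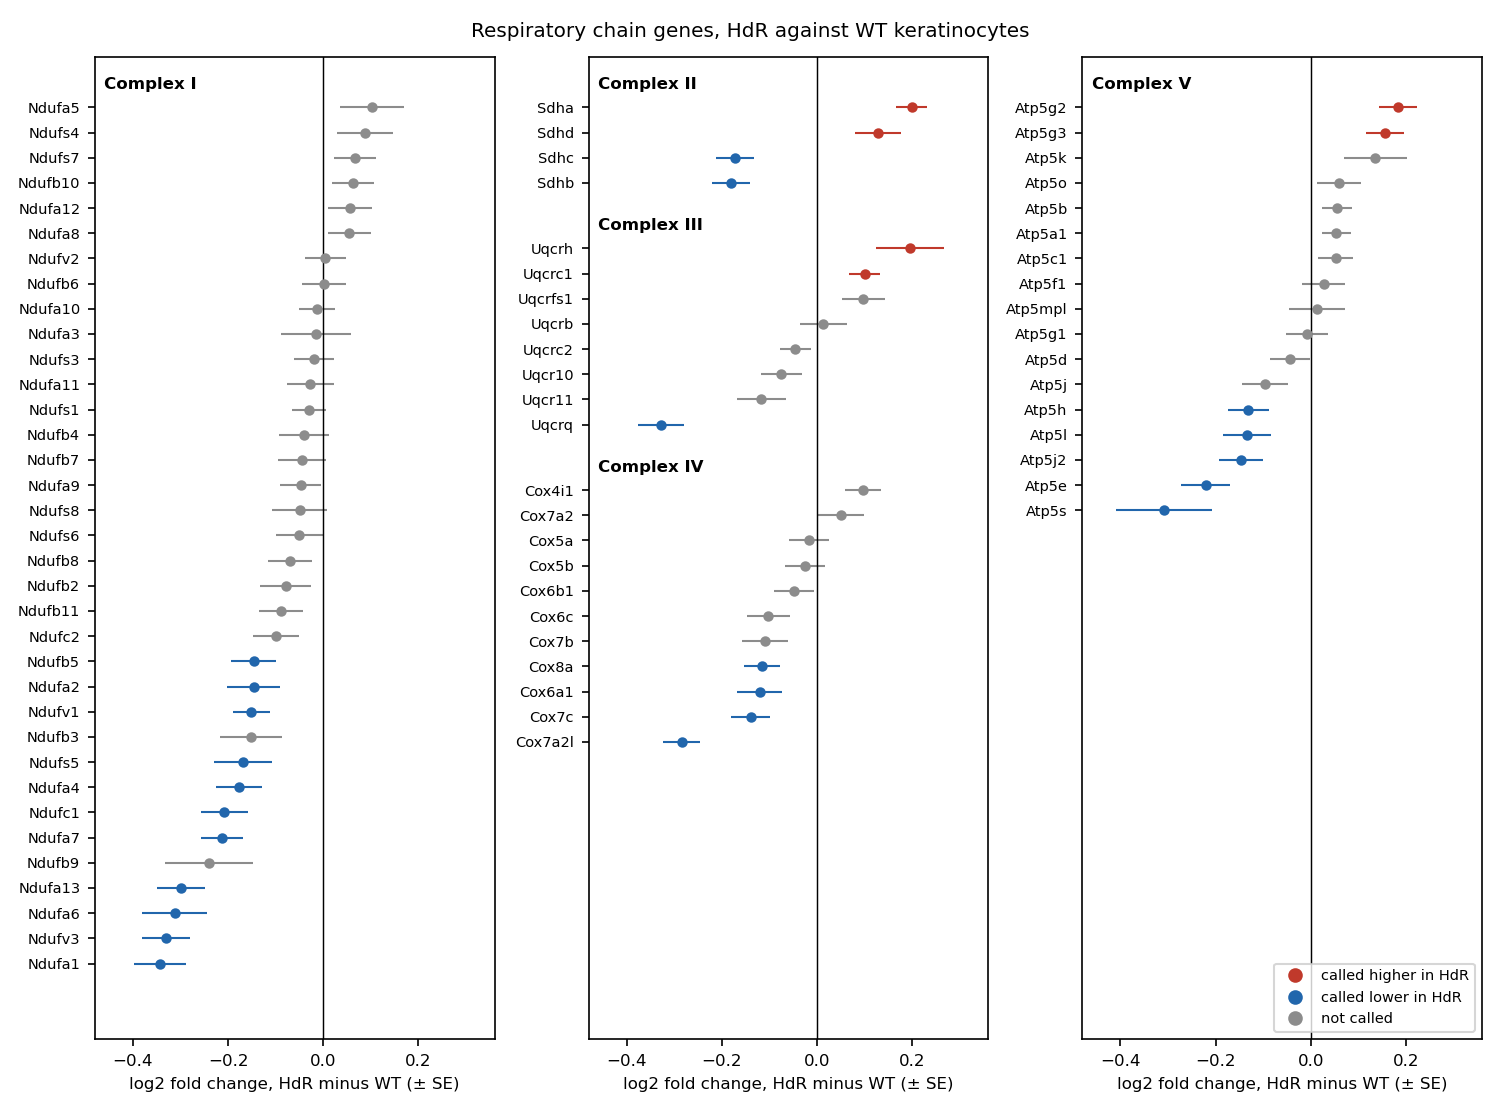
Log2 fold change, HdR minus WT, of tested respiratory chain genes (points) with standard errors (bars), grouped by complex and ordered by size, with calls at a limma adjusted p under 0.05 in colour. In the main fit (TMM scaling, all 8 libraries) no complex I or complex IV gene was called higher. Cox4i1 of complex IV, at an adjusted p of 0.05002, was called higher in several alternatives, some with TMM scaling and some with other scalings. Ndufs7 of complex I was called higher with GC and length correction. Complex II split 2 and 2, and every value lay between -0.34 and 0.20.

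The curve of respiratory chain genes was steeper than that of all genes in the plot of cumulative percentages. The summed level of the 82 genes took 1.05 ± 0.011% of the aligned bases of an HdR library and 1.05 ± 0.027% of a WT library (SD, n = 4 each). HdR shares of 1.05%, 1.06%, 1.03% and 1.06% lay inside the WT shares, which were 1.04%, 1.01%, 1.08% and 1.05%. By complex, the shares were 0.269 ± 0.0038% in HdR and 0.280 ± 0.0088% in WT for complex I and 0.171 ± 0.0035% in HdR and 0.175 ± 0.0050% in WT for complex IV. Complex III took 0.110 ± 0.0022% in HdR and 0.110 ± 0.0029% in WT. Complex II took 0.0508 ± 0.00099% in HdR and 0.0482 ± 0.00076% in WT, with HdR shares above all WT shares. Complex V, the largest share, took 0.449 ± 0.0026% in HdR and 0.432 ± 0.011% in WT, again with HdR above WT in every library. Both separations held for these shares of library totals and not at the TMM-scaled levels used below. At those levels the summed complex II genes had 512, 510.5, 498 and 492 aligned bases per Mb in HdR, against 486, 473, 494 and 494 in WT, and the summed complex V genes had 4470.3, 4473, 4392 and 4473 in HdR, against 4336, 4170.3, 4558 and 4372 in WT, so that HdR 4 overlapped WT for complex II and WT 3 exceeded every HdR library for complex V.

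**Figure D2:**
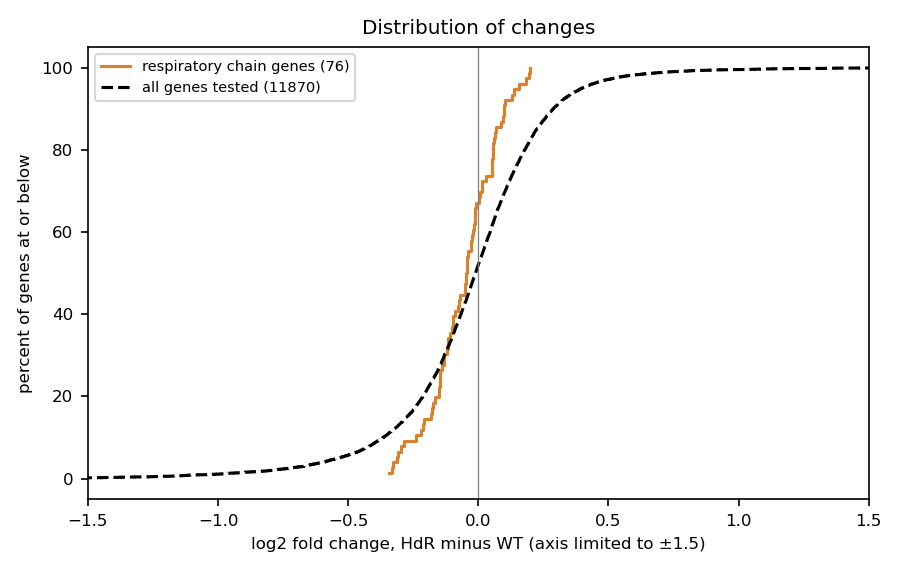
Percent of genes (y axis) with a log2 fold change, HdR minus WT, at or below the value on the x axis, for the 76 respiratory chain genes and for all 11870 genes tested. The respiratory chain curve runs from -0.34 to 0.20, and its genes are also part of the curve of all genes.

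Per kilobase of transcript, the median level of the tested genes was 95.4 in HdR and 100.9 in WT for complex I, in aligned bases per Mb per kb. For complex II it was 84.1 in HdR and 77.5 in WT. Complexes III, IV and V lay higher, at 189, 197 and 218 in HdR and at 177, 212 and 241 in WT. All of these exceeded the median of all genes tested, which was 11.4 in HdR and 11.7 in WT. The highest member per kilobase was Atp5b, the catalytic beta subunit of ATP synthase, at 775 in HdR and 746 in WT, and the lowest tested complex I gene was Ndufs4 at 24.7 in HdR and 23.2 in WT.

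Libraries of 1 genotype also differed from each other over the chain as a whole. Relative to the WT mean of each gene, the median over the tested members was -0.053, -0.036, -0.077 and -0.032 on the log2 scale in the HdR libraries, against 0.0065, -0.078, 0.086 and -0.0093 in the WT libraries. All HdR medians were below 0, and WT 2 was as low as the lowest HdR library, while WT 3 was the highest of all. Without WT 2 the median log2 fold change of the 76 genes was -0.077, and without WT 3 it was -0.016.

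**Figure D3:**
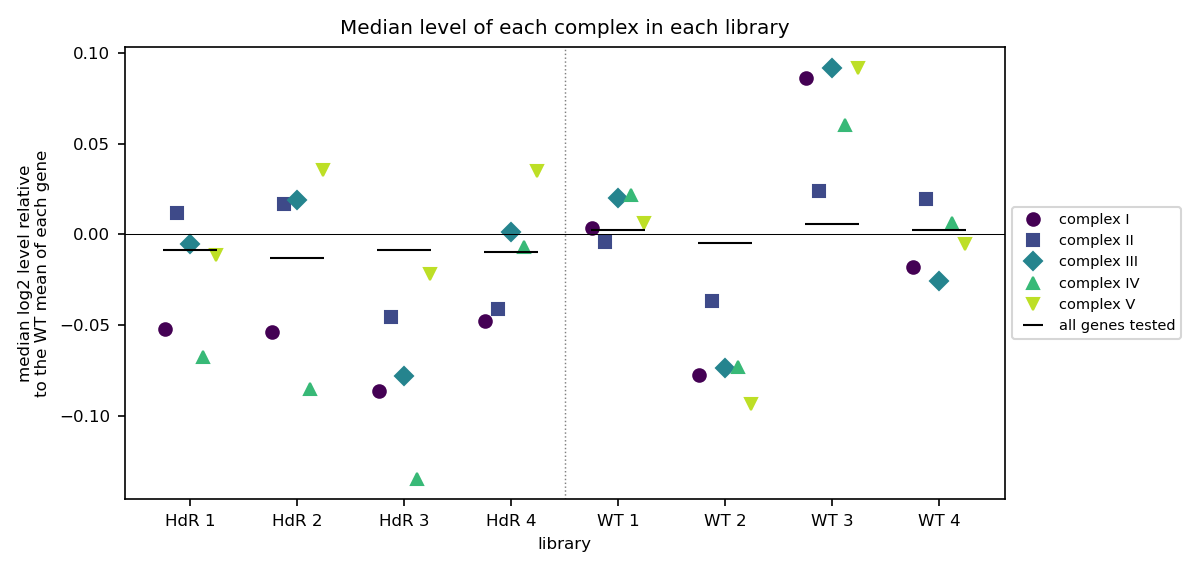
Median log2 level of the tested genes of each complex in each library (symbols), relative to the WT mean of each gene, with the median of all genes tested as a short bar. Complexes I and IV lay below 0 in every HdR library, and the medians of all complexes were below 0 in WT 2 and above 0 in WT 3.

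Complex I, the NADH dehydrogenase, had 11 genes lower (30.6%) and 0 higher of 36 tested. Over all genes tested 23.8% were lower and 21.2% higher. The median log2 fold change of complex I was -0.050, with 0 higher also at an unadjusted p under 0.05 or by limma-voom. Of the 7 nuclear core subunits, those that carry the catalytic and electron-transfer sites, 1 was called (14.3%). Of the 29 supernumerary subunits, the accessory proteins around that core, 10 were called (34.5%), Ndufa4 among them. All of these calls were lower, and 23.8% of all genes tested were lower. The core share lay under that share and the supernumerary share above it, which was not tested. The median of all 36 was -0.024 with library totals and -0.010 with upper-quartile scaling, -0.080 without WT 2 and -0.026 without WT 3. The difference between the shares of core and supernumerary genes was not tested. The median log2 fold change was -0.019 for the core and -0.079 for the supernumerary subunits.

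The core subunit that fell was Ndufv1, which holds the NADH-binding site (chromosome 19, 4007384 to 4012806, minus strand, in GRCm38). It had 127, 119.9, 118 and 120.1 aligned bases per Mb in HdR libraries, against 132, 131, 141 and 135 in WT libraries, without overlap (log2 fold change -0.15 ± 0.039, SE, limma adjusted p = 0.00463). Its partner in the NADH-oxidising module, Ndufv2, was at 93.5 ± 5.14 in HdR and 93.1 ± 2.23 in WT (mean ± SD, n = 4 each) and was not called (log2 fold change 0.0047 ± 0.044). Core genes of the iron-sulfur chain and the quinone site were not called either, with log2 fold changes of -0.029 for Ndufs1, -0.019 for Ndufs3, 0.067 for Ndufs7 and -0.050 for Ndufs8. Of these 4 and Ndufv2, Ndufs7 was the one that gained a call in an alternative, with GC and length correction (adjusted p = 0.00679). Exons of Ndufs1 and Ndufs3 overlap those of genes on the opposite strand, and the strand setting of the counting is not given in the sources used here.

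The accessory genes that fell did so by up to 21.7% of their WT mean. Ndufa1, an X-linked subunit of the membrane arm (chromosome X, 37187588 to 37191163, minus strand), had 29.1, 29.5, 29.6 and 32.5 aligned bases per Mb in HdR libraries, against 39.9, 36.6, 38.6 and 39.0 in WT libraries. The groups did not overlap, and Ndufa1 had the largest fall of the 76 genes (log2 fold change -0.34 ± 0.054, limma adjusted p = 7.21e-05). Ndufv3, a small subunit of the NADH-oxidising module (chromosome 17, 31520115 to 31531331, plus strand), had 31.6, 31.2, 29.5 and 31.4 in HdR, against 39.2, 37.8, 40.6 and 38.9 in WT, again without overlap (-0.33 ± 0.051, adjusted p = 5.16e-05). Ndufa6, an LYR-motif subunit, had 26.02, 31.0, 26.4 and 31.2 in HdR, against 34.8, 36.7, 38.2 and 33.3 in WT (-0.31 ± 0.068, adjusted p = 0.00127). The 4 HdR values of Ndufa6 were more spread than those of Ndufa1 or Ndufv3 and still lay below every WT value. Ndufa13, also known as GRIM-19, averaged 63.7 ± 1.93 in HdR and 78.8 ± 5.65 in WT (-0.30 ± 0.050), and its exons overlap Tssk6 on the opposite strand. Ndufa7 averaged 89.2 ± 4.11 in HdR and 104 ± 4.62 in WT (-0.21 ± 0.045). The others that fell were Ndufc1 (-0.21), Ndufa4 (-0.18), Ndufs5 (-0.17), Ndufa2 (-0.15) and Ndufb5 (-0.15), which were named after their values were seen. Of these, Ndufa2, Ndufs5 and Ndufb5 lost their calls when single libraries were left out, with adjusted p of 0.104 without HdR 1, 0.101 without HdR 2, 0.0949 without HdR 3, 0.144 without WT 1 and 0.0558 without WT 4 for Ndufa2, of 0.0692 without HdR 1, 0.132 without HdR 3, 0.0834 without WT 1 and 0.0879 without WT 3 for Ndufs5 and of 0.0717 without HdR 3 and 0.0504 without WT 1 for Ndufb5. The same 3 calls were lost with upper-quartile scaling (adjusted p = 0.123 for Ndufa2, 0.0976 for Ndufs5 and 0.0757 for Ndufb5), and that on Ndufa2 also after thinning (0.164). The exons of Ndufa2 and Ndufb5 overlap those of other genes. The product of Ndufa4 is now counted with complex IV, although its symbol places it in complex I.

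Complex II, succinate dehydrogenase, was the complex in which every gene was called, with 2 higher and 2 lower of 4. Over all genes tested 45% were called, 21.2% higher and 23.8% lower. Sdha, the flavoprotein that oxidises succinate (chromosome 13, 74322254 to 74350280, minus strand), had 227, 226, 221 and 216 aligned bases per Mb in HdR libraries, against 196, 191, 192 and 196 in WT libraries. All HdR values were above all WT values, and this was the largest rise of the 76 genes (log2 fold change 0.20 ± 0.033, SE, limma adjusted p = 0.000126). Sdhb, the iron-sulfur subunit that takes the electrons from Sdha (chromosome 4, 140961203 to 140979193, plus strand), had 72.5, 70.3, 74.2 and 69.95 in HdR, against 79.997, 83.5, 81.8 and 80.5 in WT. It moved the opposite way, without overlap (-0.18 ± 0.040, adjusted p = 0.00143). Sdhc, a membrane anchor that helps form the coenzyme Q site (chromosome 1, 171127165 to 171150603, minus strand), had 95.5, 97.5, 96.0 and 95.4 in HdR, against 105, 104, 114 and 110.1 in WT, also lower without overlap (-0.17 ± 0.039, adjusted p = 0.00184). Its partner anchor Sdhd (chromosome 9, 50596357 to 50603812, minus strand) had 117, 117, 106 and 110.2 in HdR, against 105, 94.0, 106 and 107 in WT. The Sdhd groups overlapped, and its rise was small (0.13 ± 0.048, adjusted p = 0.0371). The call on Sdhd was lost when any of 5 libraries was left out, with adjusted p of 0.123 without HdR 1, 0.110 without HdR 2, 0.0508 without HdR 4, 0.0575 without WT 1 and 0.125 without WT 2, and after thinning (0.0802), whereas Sdha, Sdhb and Sdhc kept their calls in all 20 alternatives other than the 1.2-fold test. The log2 ratio of Sdha to Sdhb, a description chosen after the values were seen, was 1.63, 1.67, 1.57 and 1.61 in HdR, against 1.28, 1.18, 1.22 and 1.27 in WT, a difference of 0.38. For Sdhd to Sdhc, chosen in the same way, it was 0.29, 0.26, 0.14 and 0.21 in HdR, against -0.0086, -0.15, -0.11 and -0.037 in WT. Neither ratio overlapped between the genotypes.

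**Figure D4:**
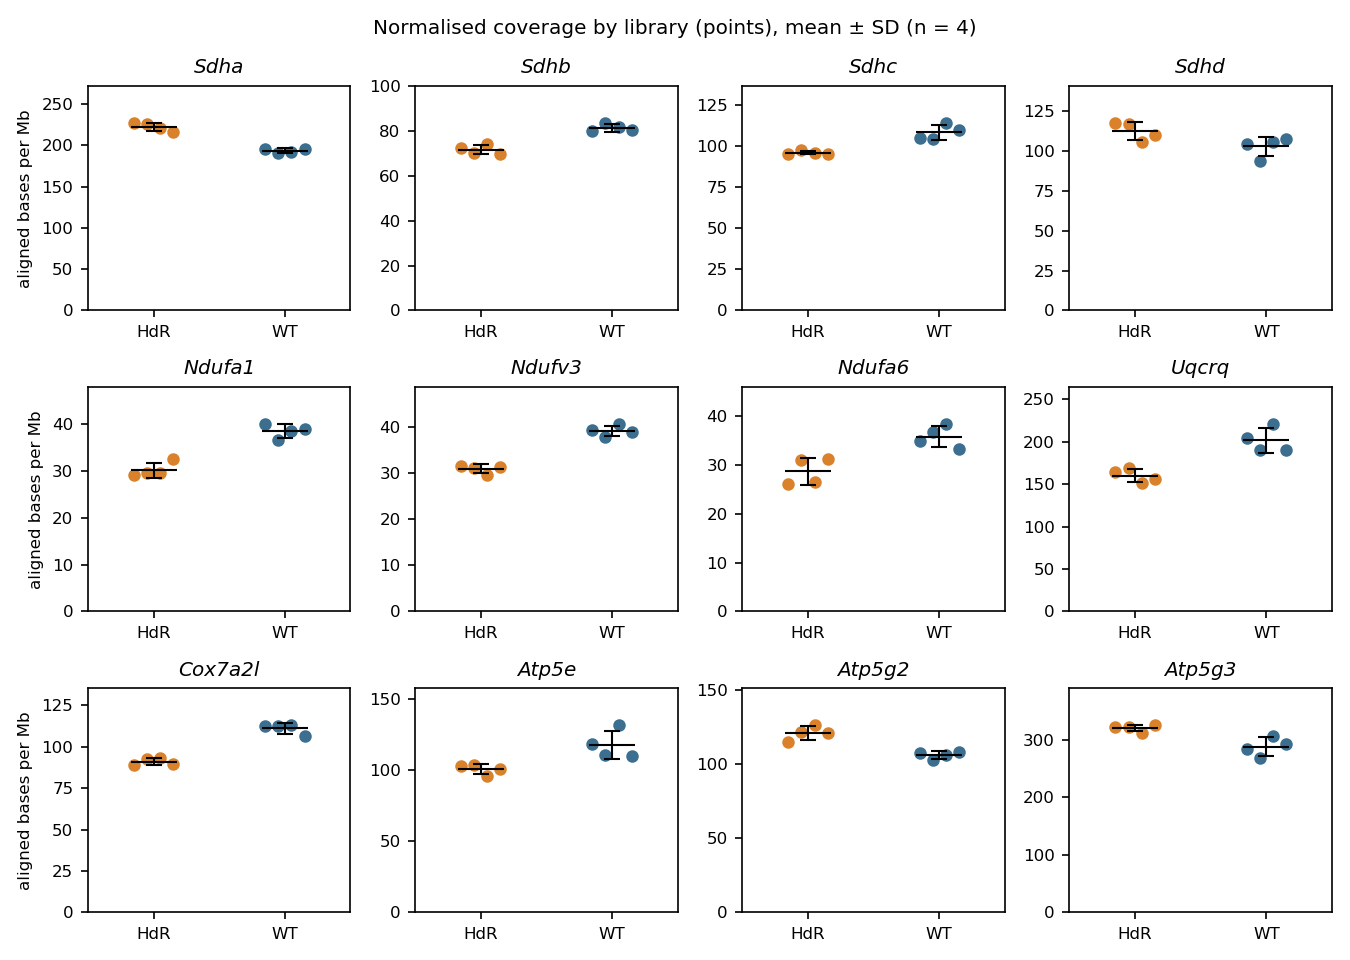
Normalised coverage in aligned bases per Mb (y axis, from 0) of 12 respiratory chain genes in each library (points), with the mean and SD of the 4 HdR and 4 WT libraries. Sdha, Atp5g2 and Atp5g3 were higher in all HdR libraries, Sdhd overlapped, and the other 8 genes were lower in all HdR libraries.

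The promoter windows of the complex II genes that moved in opposite directions, of Atp5g2, a c-ring gene that rose, and of Ndufa1, the gene with the largest fall, are given below as RefSeq places them on GRCm38.p6, from 250 bases before to 50 bases after the gene start, 5′ to 3′ along the gene. RefSeq's starts can lie away from the gene bounds given above, which are GENCODE's. Capitals mark exact matches on either strand to GCATGCG, the centre of the palindrome bound by the transcription factor NRF1, to TGCGCA, which ends the same motif and can overlap it, or to CCGGAAG, the core of ETS family motifs such as that of GABP. The windows are Sdha at chr13:74350191-74350490 (minus strand), Sdhb at chr4:140961021-140961320 (plus strand), Sdhd at chr9:50603800-50604099 (minus strand), Atp5g2 at chr15:102670998-102671297 (minus strand) and Ndufa1 at chrX:37191189-37191488 (minus strand).
Sdha: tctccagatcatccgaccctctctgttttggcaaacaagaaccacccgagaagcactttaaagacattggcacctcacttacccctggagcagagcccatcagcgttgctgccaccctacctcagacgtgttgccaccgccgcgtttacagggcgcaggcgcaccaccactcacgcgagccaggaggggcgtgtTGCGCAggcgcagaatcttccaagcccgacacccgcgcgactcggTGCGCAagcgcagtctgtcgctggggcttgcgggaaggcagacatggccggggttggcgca
Sdhb: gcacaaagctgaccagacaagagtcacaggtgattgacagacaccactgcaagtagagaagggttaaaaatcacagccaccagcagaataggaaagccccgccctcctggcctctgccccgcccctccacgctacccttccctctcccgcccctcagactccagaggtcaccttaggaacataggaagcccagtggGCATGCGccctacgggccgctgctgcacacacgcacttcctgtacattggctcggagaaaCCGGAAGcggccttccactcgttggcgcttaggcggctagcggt
Sdhd: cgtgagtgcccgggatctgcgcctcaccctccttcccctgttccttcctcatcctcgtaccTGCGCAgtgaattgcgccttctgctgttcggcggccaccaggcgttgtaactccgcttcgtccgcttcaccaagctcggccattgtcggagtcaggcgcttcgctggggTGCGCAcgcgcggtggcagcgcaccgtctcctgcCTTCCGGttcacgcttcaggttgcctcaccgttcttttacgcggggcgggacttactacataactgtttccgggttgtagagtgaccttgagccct
Atp5g2: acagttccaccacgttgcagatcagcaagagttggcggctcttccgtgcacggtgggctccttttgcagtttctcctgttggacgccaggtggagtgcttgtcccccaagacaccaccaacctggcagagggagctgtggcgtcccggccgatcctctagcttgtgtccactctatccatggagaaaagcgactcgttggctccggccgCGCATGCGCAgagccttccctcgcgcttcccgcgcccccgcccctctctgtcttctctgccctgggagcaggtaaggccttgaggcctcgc
Ndufa1: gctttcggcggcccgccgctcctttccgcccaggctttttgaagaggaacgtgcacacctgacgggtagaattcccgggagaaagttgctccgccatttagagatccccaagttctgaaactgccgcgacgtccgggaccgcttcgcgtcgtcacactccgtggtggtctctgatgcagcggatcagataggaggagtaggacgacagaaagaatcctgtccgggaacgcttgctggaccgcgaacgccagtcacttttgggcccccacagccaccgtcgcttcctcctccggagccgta
Sdha held TGCGCA at 2 places, Sdhb GCATGCG and CCGGAAG, Sdhd TGCGCA at 2 places and CCGGAAG on the other strand, and Atp5g2 GCATGCG on both strands with TGCGCA overlapping it. Ndufa1 held none of these letters in its window. Both Sdha, which rose, and Sdhb, which fell, thus carried letters of the NRF1 motif, and these matches are descriptions of sequence only.

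Over the 62 tested members with a promoter window (14 had none in the table), GCATGCG was found in 10, or 16.1%, against 6.73% of the windows of the same length of 9344 genes tested. TGCGCA was found in 27.4%, against 14.8%, and CCGGAAG in 24.2%, against 19.5%. AAGATGG, the core of the YY1 motif, was found in 14.5%, against 7.57%, and TATAAA, the TATA box, in 8.06%, against 6.92%. All 5 motifs were searched on both strands. Among members, TGCGCA occurred in 4 of 6 that were called higher, in 4 of 19 that were called lower and in 9 of 37 that were not called. GCATGCG occurred in 2 of 6 higher, 4 of 19 lower and 4 of 37 not called. No test was made of these small counts. Restricted to 100 bases before to 50 bases after the start, the shares were 19.4%, against 10.2%, for TGCGCA and 12.9%, against 4.67%, for GCATGCG. In the same window they were 21.0%, against 15.3%, for CCGGAAG, 14.5%, against 4.90%, for AAGATGG and 3.2%, against 3.1%, for TATAAA.

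Complex III, the cytochrome bc1 complex, had 2 genes higher (25%) and 1 lower (12.5%) of 8, against 21.2% higher and 23.8% lower of all genes tested. Its median log2 fold change of -0.016 turned positive with library totals (0.011), upper-quartile scaling (0.024) and thinning (0.0047), or without HdR 3 (0.0047). Uqcrq, a small subunit next to cytochrome b (chromosome 11, 53427922 to 53430831, minus strand), had 164, 169, 152 and 156 aligned bases per Mb in HdR libraries, against 205, 190.0, 220.4 and 191 in WT libraries. Every HdR value was below every WT value (log2 fold change -0.33 ± 0.049, SE, limma adjusted p = 4.64e-05). Uqcrh, the hinge protein that helps cytochrome c bind, had 86.6, 78.9, 77.3 and 82.3 in HdR, against 73.4, 59.4, 77.4 and 74.1 in WT. Its groups overlapped and WT 2 lay far below the others, and the rise (0.20 ± 0.072, adjusted p = 0.0412) was not called without that library (log2 fold change 0.11, adjusted p = 0.0653), nor without others (adjusted p = 0.111 without HdR 1, 0.0617 without HdR 2, 0.0875 without HdR 4 and 0.0543 without WT 1) or after thinning (0.0506). Uqcrc1, a core protein on the matrix side, averaged 316 ± 4.99 in HdR and 294 ± 6.59 in WT (SD, n = 4 each), higher without overlap (0.10 ± 0.033, adjusted p = 0.0199), a call lost with single libraries left out (adjusted p = 0.0711 without HdR 1 and 0.0578 without WT 1). Uqcrfs1, the Rieske iron-sulfur protein and the nuclear-encoded catalytic subunit along with Cyc1, averaged 102 ± 3.03 in HdR and 95.2 ± 5.49 in WT (0.10 ± 0.045, adjusted p = 0.0876), and was called only without WT 3 (0.0188), with library totals (0.0232) or with upper-quartile scaling (0.0193). The number of complex III genes called higher was 0 without HdR 1 or WT 1, 1 without HdR 2, HdR 4 or WT 2, and 3 without WT 3, and the number lower was 2 without HdR 2 or WT 2.

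Complex IV, cytochrome c oxidase, had 4 genes lower (36.4%) and 0 higher of 11 tested, against 23.8% lower and 21.2% higher of all genes tested. Its median log2 fold change of -0.10 was the lowest of the complexes. With library totals 2 were lower and 1 higher, and with upper-quartile scaling 1 was lower and 1 higher with a median of -0.062, while GC and length correction gave a median of -0.061. The product of Cox7a2l (chromosome 17, 83501918 to 83517330, minus strand) can join complexes III and IV into supercomplexes, which were not measured here. Cox7a2l had 88.7, 92.8, 93.0 and 89.8 aligned bases per Mb in HdR libraries, against 113, 113, 113 and 106 in WT libraries. The groups were well apart (log2 fold change -0.28 ± 0.039, limma adjusted p = 1.68e-05). Of the structural subunits, Cox7c (-0.14 ± 0.041, adjusted p = 0.0107), Cox6a1 (-0.12 ± 0.047, 0.0466) and Cox8a (-0.12 ± 0.038, 0.0196) fell by less than Cox7a2l, to means -9.27%, -8.17% and -7.67% away from those of WT, with overlapping groups. The call on Cox6a1 was lost (adjusted p = 0.127 without HdR 1, 0.123 without HdR 3, 0.0729 without HdR 4, 0.133 without WT 1 and 0.121 without WT 3), and that on Cox8a (adjusted p = 0.0644 without HdR 2 and 0.0571 without HdR 3). With upper-quartile scaling the calls on all 3 were lost (adjusted p = 0.0633 for Cox7c, 0.176 for Cox6a1 and 0.122 for Cox8a), and after thinning those on Cox6a1 (0.146) and Cox8a (0.0794). Cox4i1, the subunit through which ATP inhibits the enzyme, averaged 309 ± 9.03 in HdR and 289 ± 13.0 in WT and lay just above the threshold of 0.05 (0.10 ± 0.039, adjusted p = 0.05002), the 1 complex IV gene higher at an unadjusted p under 0.05. It was called higher without HdR 3 or WT 3 and in 7 other alternatives, limma-voom among them. Cox7a2 averaged 99.2 ± 5.12 in HdR and 95.7 ± 5.61 in WT (0.051 ± 0.049, adjusted p = 0.411), and Cox6b1 199.6 ± 5.23 in HdR and 206 ± 12.5 in WT (-0.047 ± 0.042). The number lower was 2 without HdR 3 and 6 without WT 2. Transcripts nearly identical to Cox7a2l and Cox7c exist elsewhere in the annotation, and reads could be shared with them.

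The tissue-specific isoforms of complex IV were at or near 0 in these cells. Cox4i2, the isoform of lung and of low oxygen, had 0, 0, 0 and 0 aligned bases before scaling in HdR libraries, against 302, 284, 302 and 589 in WT libraries, where a full read pair gives 302. Cox6a2, the heart and skeletal muscle isoform, had 0, 252, 0 and 0 in HdR, against 1532, 1030, 1370 and 1630 in WT, a few read pairs at most, and its exons overlap Itgad on the opposite strand. Cox8b had 0, 578, 246 and 0 in HdR, against 0, 0, 0 and 0 in WT. Cox6a2 and Cox4i2 were listed lower in HdR and stayed below the filter. After scaling, Cox6a2 averaged 0.017 aligned bases per Mb in HdR and 0.275 in WT. The HdR libraries were the shallower ones, and the part of depth was not tested. In the fit without a filter Cox6a2 and Cox4i2 were called lower, with log2 fold changes of -0.33 (limma adjusted p = 0.000286) and -0.10 (0.0191). At these levels the pseudocount of 1 exceeds the values themselves. Cox7a1, another muscle isoform, reached 0.179 aligned bases per Mb in HdR and 0.128 in WT at most, and Cox6b2, the testis isoform, 0.467 in HdR and 0.265 in WT. The summed level of 7 skeletal muscle markers was 2.74 to 4.39 in HdR and 2.36 to 3.74 in WT. The 2 tested had log2 fold changes of 0.064 and 0.59, and 1 was called higher. Ndufb4c, annotated as a processed pseudogene, was the untested member nearest the filter, at a mean of 0.755, while Atp5s at 5.38 was the tested member nearest to it.

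Complex V, ATP synthase, had 2 genes higher (11.8%) and 5 lower (29.4%) of 17, against 21.2% higher and 23.8% lower of all genes tested. Its median log2 fold change of 0.014 turned negative without HdR 2 (-0.019) or WT 2 (-0.039) and with limma-voom (-0.0020). It was 0.040 with library totals, which called 5 higher, and 0.054 with upper-quartile scaling, which called 5 higher and 2 lower. The rises were in the c-ring, the rotor in the membrane that turns with the proton flow. Atp5g1, Atp5g2 and Atp5g3 encode the same mature c subunit with different import sequences. Atp5g2 (chromosome 15, 102662864 to 102672352, minus strand) had 115, 121, 126 and 121 aligned bases per Mb in HdR libraries, against 107, 103, 106 and 108 in WT libraries, higher without overlap (log2 fold change 0.18 ± 0.040, SE, limma adjusted p = 0.00115). Atp5g3 (chromosome 2, 73908447 to 73911326, minus strand) had 323, 323, 313 and 325 in HdR, against 285, 269, 307 and 293 in WT, also without overlap (0.16 ± 0.040, adjusted p = 0.00405). Atp5g1 (chromosome 11, 96068852 to 96075670, minus strand) had 159, 174, 169 and 173 in HdR, against 165, 159, 181 and 174 in WT, with groups that overlapped (-0.0074 ± 0.044, adjusted p = 0.907). Near-identical transcripts elsewhere in the annotation could share reads with Atp5g1 and Atp5g2.

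In the F1 head, where ATP is made, the alpha and beta genes Atp5a1 and Atp5b were not called. Atp5b averaged 1485 ± 13.2 in HdR and 1429.7 ± 36.3 in WT (0.055 ± 0.031, adjusted p = 0.163), and Atp5a1 883 ± 10.9 in HdR and 850.2 ± 14.7 in WT (0.054 ± 0.031, 0.167). Atp5a1 was higher in every HdR library all the same, and both were called higher with library totals or upper-quartile scaling. Atp5e, the small epsilon subunit of the central stalk (chromosome 2, 174461072 to 174464105, minus strand), had 103, 103, 95.5 and 100.4 in HdR, against 118, 111, 131 and 110.1 in WT, lower without overlap (-0.22 ± 0.051, adjusted p = 0.00213). Lower as well were Atp5h of the peripheral stalk (-0.13 ± 0.043, 0.0197) and the small membrane subunits Atp5j2 (-0.15 ± 0.046, 0.0157) and Atp5l (-0.13 ± 0.050, 0.0368). Their groups overlapped for Atp5h and Atp5j2 and not for Atp5l. The call on Atp5h was lost (adjusted p = 0.0600 without HdR 4 and 0.0599 without WT 1), that on Atp5j2 (adjusted p = 0.0619 without HdR 4), and that on Atp5l (adjusted p = 0.152 without HdR 3, 0.0763 without WT 1, 0.0815 without WT 3 and 0.0569 without WT 4). Atp5s, matched by its symbol although its product is not a subunit of the complex, was the lowest of the tested members, at 5.30, 4.71, 4.84 and 3.97 in HdR and 6.51, 6.37, 5.49 and 5.84 in WT (-0.31 ± 0.10, adjusted p = 0.0192), and its call was lost (adjusted p = 0.0588 without HdR 4, 0.0633 without WT 1 and 0.0522 without WT 2). With upper-quartile scaling the calls on Atp5h (0.0957), Atp5j2 (0.0689) and Atp5l (0.140) were lost, and after thinning those on Atp5l (0.0672) and Atp5s (0.223). The number of complex V genes called lower was 2 without HdR 4 or WT 1, and the number higher was 3 without WT 3.

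The factor that scales a library nearly cancels in a ratio of genes within that library, apart from the pseudocount. These ratios are not corrected for transcript length, so they compare libraries and not the levels of the genes. Among the ratios of related genes and isoforms that were listed, 4 had both genes past the filter. The log2 ratio of Cox7a2l to Cox7a2 was -0.11, -0.054, -0.074 and -0.25 in HdR, against 0.16, 0.35, 0.20 and 0.14 in WT (difference -0.34 ± 0.065, SE). For Atp5g1 to Atp5g2 it was 0.46, 0.51, 0.42 and 0.52 in HdR, against 0.62, 0.62, 0.76 and 0.67 in WT (difference -0.19 ± 0.041). For Atp5g1 to Atp5g3 it was -1.02, -0.89, -0.89 and -0.90 in HdR, against -0.78, -0.76, -0.76 and -0.75 in WT (difference -0.16 ± 0.033). These 3 ratios did not overlap between the genotypes, each with a two-sided exact permutation p = 0.029, the smallest that 70 regroupings allow, and p = 0.038 after Benjamini-Hochberg adjustment over the 4 ratios. Atp5g2 to Atp5g3 overlapped (difference 0.028 ± 0.049, exact permutation p = 0.6), and its sign turned without HdR 3 (-0.0056) or WT 3 (-0.0022). The Atp5g ratios share their genes, and each follows from the others, so their p-values are not independent. The genes of all these ratios were among those whose changes were known from earlier results, so the ratios restate those changes on another scale.

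**Figure D5:**
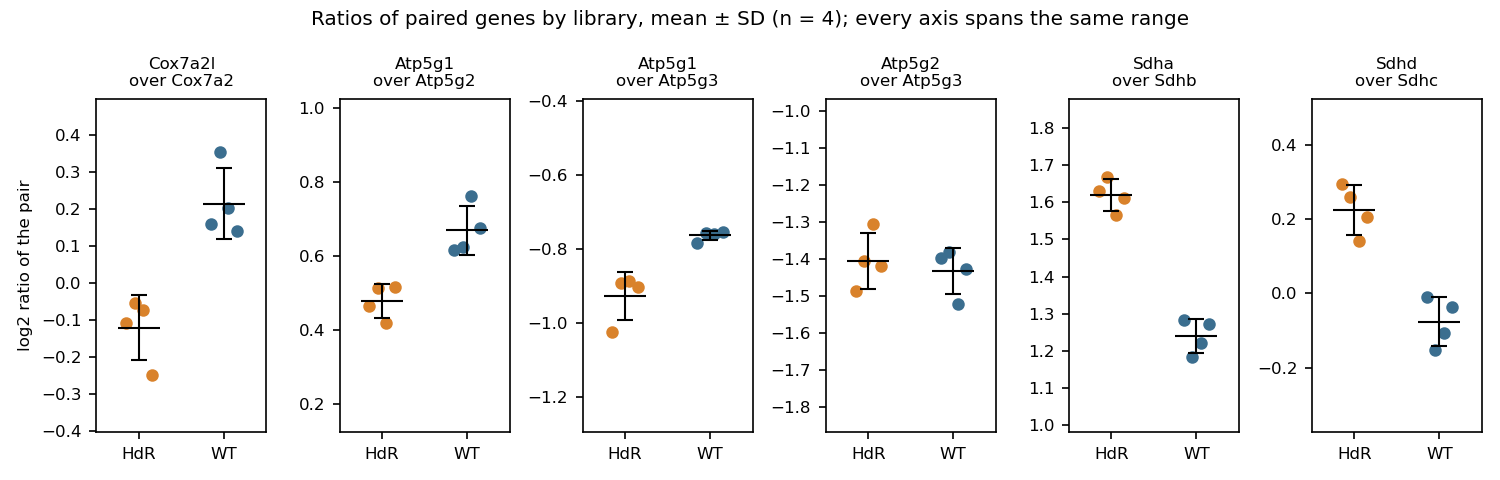
Log2 ratio of the levels of 2 respiratory chain genes in each library (points), with the mean and SD of the 4 HdR and 4 WT libraries, on axes that span the same range. The Cox7a2l, Atp5g1, Sdha and Sdhd ratios did not overlap between HdR and WT, and Atp5g2 over Atp5g3 did.

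Genes around the chain were read from lists chosen with earlier results of these data known. Their counts stand beside the 21.2% of all genes tested that were higher and the 23.8% that were lower, and no difference from these shares was tested. Of 11 subunits and electron carriers outside the symbol rule, 3 were higher and 4 lower. Ndufa4l2, a paralogue of Ndufa4 that responds to low oxygen, fell to 27.5 ± 2.30 aligned bases per Mb in HdR, against 76.3 ± 5.51 in WT (mean ± SD, n = 4 each; log2 fold change -1.44 ± 0.063, limma adjusted p = 2.98e-11). Gpd2, the mitochondrial glycerol-3-phosphate dehydrogenase that feeds coenzyme Q, rose (0.27 ± 0.046), and Atpif1, the inhibitor of ATP synthase, fell (-0.29 ± 0.042). Cycs, which encodes cytochrome c, averaged 172 ± 4.52 in HdR and 146 ± 10.9 in WT, higher without overlap (0.24 ± 0.047), while Cyc1, its electron donor in complex III, was not called (-0.0085 ± 0.037), and both were named after their values were seen.

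Of 16 assembly factors of complex I, 1 was higher and 2 lower, with Ndufaf4 at 0.24 ± 0.062, Nubpl, which delivers iron-sulfur clusters, at -0.24 ± 0.082 and Foxred1 at -0.18 ± 0.071. Of 36 assembly factors of complexes II to V, 6 were higher and 3 lower, with the smallest p in Higd2a (-0.25 ± 0.053), the copper chaperone gene Sco2 (0.20 ± 0.047) and Cox14 (-0.25 ± 0.062). The medians were -0.070 and 0.048. The calls on Nubpl and Foxred1 were lost when single libraries were left out, with adjusted p of 0.0651 without HdR 1, 0.0692 without HdR 4, 0.0564 without WT 1 and 0.0840 without WT 2 for Nubpl and of 0.1002 without HdR 1, 0.164 without HdR 2, 0.0850 without WT 1, 0.111 without WT 2 and 0.0683 without WT 3 for Foxred1. After thinning the calls on Ndufaf4 (0.0969), Nubpl (0.138) and Foxred1 (0.269) were lost.

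Coenzyme Q synthesis split, with 2 of 13 genes higher and 4 lower. Coq4, which holds the synthesis complex together, rose to 16.8 ± 0.516 aligned bases per Mb in HdR, against 12.7 ± 0.105 in WT (0.38 ± 0.065, SE, limma adjusted p = 0.000164), while Coq8b, an atypical kinase, and Coq9, a lipid-binding protein, fell (-0.41 ± 0.061 and -0.31 ± 0.052). In the TCA cycle, 5 of 18 enzyme genes were higher and 2 lower. Idh3a, the catalytic alpha subunit of the NAD-dependent isocitrate dehydrogenase, rose (0.26 ± 0.037), while Idh3g, its gamma subunit (-0.12 ± 0.041), and the NADP-dependent Idh2 (-0.40 ± 0.048) fell, so that subunits of this enzyme, like those of complex II, moved in opposite directions. The call on Idh3g was lost (adjusted p = 0.0591 without HdR 2, 0.0702 without HdR 4, 0.0587 without WT 1 and 0.0644 without WT 4), and with upper-quartile scaling (0.138).

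Of 18 tested regulators of mitochondrial gene expression, 3 were higher and the other 15 were not called. Ppargc1a, the co-activator of mitochondrial biogenesis in muscle and brown fat, was below the filter and was not tested. Lrpprc and Slirp, which together stabilise mitochondrial messenger RNAs, rose to 93.8 ± 2.22 and 36.9 ± 2.66 aligned bases per Mb in HdR, against 77.3 ± 2.99 and 31.1 ± 0.694 in WT. Their log2 fold changes were 0.28 ± 0.041 and 0.24 ± 0.057. Nrf1, whose product binds the palindrome named above, was at 0.21 ± 0.069 (adjusted p = 0.0186), a call lost with single libraries left out (adjusted p = 0.0667 without HdR 2, 0.0596 without HdR 4 and 0.0577 without WT 1) and after thinning (0.366). Of 23 genes of protein import and folding 9 were higher and 3 lower, with the chaperonin gene Hspd1 at 713 ± 18.6 in HdR and 537 ± 21.7 in WT (0.41 ± 0.036) and the outer membrane gene Tomm40 (0.25 ± 0.035) also higher and Hspa9, the matrix Hsp70 chaperone, lower (-0.24 ± 0.035). Of 14 genes of cristae and mitochondrial dynamics, 4 were higher and 2 lower, with the prohibitin genes Phb (0.29 ± 0.051) and Phb2 (0.24 ± 0.037) higher and the fusion gene Mfn2 (-0.24 ± 0.046) lower. The median log2 fold change was 0.12 for the import list, against -0.046 for the respiratory chain genes and -0.010 for all genes tested.

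The respiratory chain genes are short, with a median chosen transcript of 669.5 bases, against 2473 over all genes tested. Across the 76 genes, which are not independent replicates, Spearman's rho between log2 fold change and transcript length was 0.21, and with GC content it was -0.012. Over 11775 genes tested with both properties, rho was 0.038 and -0.073. With values corrected for GC content and length, 9 respiratory chain genes were higher and 23 lower. Exons of 28 of the 82 members overlap those of another annotated gene, and 21 members have a transcript elsewhere that is at least 95% identical over 150 bases, so their reads could be split or shared. Of the members named above, exons overlapped in Atp5a1, Atp5g2, Atp5l, Cox4i1, Cox6a2, Ndufa13, Ndufa2, Ndufb5, Ndufs1 and Ndufs3, and near-identical transcripts were found for Atp5g1, Atp5g2, Atp5h, Atp5l, Cox7a2l, Cox7c, Ndufb4c, Ndufs3 and Ndufs5. Thinned to the smallest library, where depth no longer differed, 4 members were called higher and 18 lower.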

How the data were processed

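RNA was measured by sequencing in 8 libraries, and each column of the deposited table was mapped to its library by name. Per the labels' protocols, RNA was extracted with an RNeasy kit, made into libraries with NEBNext Ultra II reagents and sequenced on an Illumina NovaSeq. The submitters' processing notes name GRCm38 as the build. The aligner, counting tool, annotation, filters and strand setting are not given in the sources used here. The deposited values are signal, read from the values themselves as coverage: whole-number sums of aligned bases per gene, unscaled for depth or length. The commonest non-zero value was 302, and of the non-zero values below 10 times that number 16.9% were exact multiples of it, so they are not read counts, and intervals that need counts are not given.

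Each library was scaled with TMM factors (0.974 to 1.01, trimming 30% of log ratios and 5% of mean levels). limma 3.58.1 in R 4.3.3 (lmFit, eBayes with trend and robust variance, statmod 1.5.0) was run on log2(aligned bases per Mb + 1) for genes with a mean of at least 1, two-sided, with genotype as the only factor, HdR minus WT as the direction and Benjamini-Hochberg adjustment over 11870 genes. Calls were made below an adjusted p of 0.05. The pseudocount understates changes of low genes. Of the 19457 symbols, 19158, including all 82 members, matched GENCODE vM21 (GRCm38), the source of coordinates, transcript lengths and GC content. The length is that of the lower median protein-coding transcript. Promoter windows are RefSeq's. Figures used Python 3.11.15 and matplotlib 3.10.9.

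The members, gene lists, motifs and naming rule were chosen with earlier results of these data known. The rule names up to 5 called members in each direction per complex, all Sdh genes, the nuclear core subunits of complex I, Uqcrfs1, Atp5a1, Atp5b, the isoform pairs and the 3 genes with the smallest p of each other list. Rbck1 was added as the targeted gene, and the other genes outside the rule (those marked in the text, Ndufs4, Ndufb4c, Ppargc1a and single marker genes) were named after their values were seen. On simulated data for HdR minus WT over 11866 genes, the fit found 98% of 100 genes given a 1.5-fold change. It found 100% of 100 genes given a 2-fold change, and 4.81% of its 208 calls were false. The simulated spread between libraries was a set value, not one taken from these libraries. Both simulated folds exceed the change of every tested member, so these rates do not apply to the smaller changes described here. Alternatives were other scalings, filters, pseudocounts, limma-voom with sample weights, the replicate number as a block, thinning, GC and length correction, a test against a 1.2-fold change and leaving out libraries. Subunits encoded by mitochondrial DNA were not analysed here, and 1 gene that the rule names enters the counts but is not reported here.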

Additional observations from a re-analysis of the deposited data

Results flagged for a closer look

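Among 90 groups of 4 libraries examined, 5 held a library far from the other 3 relative to the range of its group, where chance alone gives about 1 in 20. Atp5l was at 77.5 aligned bases per Mb in HdR 3, below the 88.7 to 89.3 of the other HdR libraries, and its call as lower was lost without that library (limma adjusted p = 0.152). Cox7a2l was at 106 in WT 4, below the 113 of the other WT libraries and above every HdR library. Ndufa1 was at 32.5 in HdR 4, the shallowest library, above the 29.1 to 29.6 of the other HdR libraries and below every WT library. Ndufa2, with a call as lower, was at 65.8 in the same library, above the 56.5 to 57.4 of the other HdR libraries. The log2 ratio of Atp5g1 to Atp5g3 was -1.02 in HdR 1, below the -0.90 to -0.89 of the other HdR libraries, and without HdR 1 the difference between the genotypes was -0.13.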

How the results depend on the processing

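Of the 29 called respiratory chain genes, 16 (3 higher and 13 lower) kept their call in all 20 alternatives other than the test against a 1.2-fold change, which called 0 higher and 0 lower in every complex and 343 higher and 544 lower among all genes. The median log2 fold change of all genes was 0.014 with library totals, -0.0041 with median-of-ratios scaling, -0.0054 after thinning and 0.027 with upper-quartile scaling. Library totals gave 11 members higher, with 1 in complex IV and 5 in complex V, and 2 lower in complex IV. Upper-quartile scaling gave 11 higher (1 in complex IV, 5 in complex V) and 14 lower (1 in complex IV, 2 in complex V) and a complex II median of 0.018. GC and length correction gave 1 higher in complexes I and IV and 2 lower in complex III, and limma-voom gave 2 lower in complex III and 1 higher in complex IV. Median-of-ratios scaling, a pseudocount of 0.1 and the stricter filter each gave 1 higher in complex IV. No filter and thinning each gave 1 higher in complexes II and III, and thinning gave 2 lower in complex IV and 3 in complex V. Without HdR 4 and WT 4 together, 1 was higher in complex III and 2 lower in complex V. The cause of these shifts was not tested.

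With the replicate number as a block, 4 members were higher and 20 lower, with 1 higher in each of complexes II and III. The labels do not say that same-numbered libraries share more than a number. Deviations of same-numbered libraries correlated at 0.028, -0.068, -0.222 and 0.02, and those of differently numbered libraries at -0.237 to 0.248. These values cannot show if libraries shared a litter, day or batch, and no pairing was used.

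With each library left out in turn, members higher ran from 3 to 9 and lower from 17 to 28, with a median of -0.077 to -0.016, and all genes from 2145 to 2477 higher and 2416 to 2812 lower, with a median of -0.012 to -0.0099. Complex I had 0 higher and 8 to 13 lower (median -0.080 to -0.026), complex II 1 to 2 higher and 2 lower (-0.041 to -0.0041), complex III 0 to 3 higher and 1 to 2 lower (-0.030 to 0.0047), complex IV 0 to 1 higher and 2 to 6 lower (-0.12 to -0.068) and complex V 2 to 3 higher and 2 to 5 lower (-0.039 to 0.044). The log2 ratio differences ran from -0.36 to -0.29 for Cox7a2l to Cox7a2, -0.21 to -0.16 for Atp5g1 to Atp5g2, -0.18 to -0.13 for Atp5g1 to Atp5g3 and -0.0056 to 0.055 for Atp5g2 to Atp5g3, where the sign turned without HdR 3 (-0.0056) and WT 3 (-0.0022).

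Of the 76 tested members, 40 changed by less than 0.1 on the log2 scale. Depth differs between the genotypes in every library, levels rest on coverage rather than counted molecules, and protein, complex assembly and respiration were not measured.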

Other observations

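The fibroblast list had 1 tested gene, Thy1, which was lower (-0.39 ± 0.13, SE, limma adjusted p = 0.0239), a call lost without single libraries (adjusted p = 0.0582 without HdR 2, 0.0617 without HdR 4, 0.0952 without WT 1 and 0.0733 without WT 2), with sums of 2.47 to 5.80 aligned bases per Mb in HdR and 2.30 to 4.33 in WT over 6 markers. Endothelial sums were 1.54 to 2.14 in HdR and 0.663 to 1.17 in WT. Immune sums were 38.9 to 40.0 in HdR and 47.9 to 60.6 in WT, nearly all of it Cd68, with Adgre1 and Cd207 at 0 in every library. Adipocyte sums were 2.76 to 5.01 in HdR and 5.38 to 12.8 in WT, mainly Cidea. Merkel cell markers summed to at most 0.0831 in HdR and 0.0608 in WT.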
